A study of Mus musculus with 10 samples.

Results

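The genes described here are those with fewer transcripts in every responder than in every non-responder before treatment. Tumors of CT26, a mouse colorectal carcinoma line, were grown under the skin of wild-type female BALB/c mice and partly resected while still untreated. A hydrogel loaded with poly(I:C), a synthetic double-stranded RNA that innate sensors recognize, was then laid on the tumor left behind. PolyA RNA of the resected piece was sequenced for 6 responders, whose tumors later regressed completely, and 4 non-responders, whose tumors grew on without delay. The study asked which features of a tumor before treatment differ between the groups. Tumors are numbered within a group only to name them.

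The members were selected on the measured values themselves. The level of a gene is given as CPM, its estimated count in each 1000000 counts of the library. A member had a mean of at least 2 CPM over the 10 tumors, its highest responder below its lowest non-responder, and a non-responder mean at least 1.5 times the responder mean, a quotient called the ratio below. Of 36009 genes in the table, 12675 reached a mean of 2 CPM, and 733 of these (5.78%) had every responder below every non-responder. With the ratio added, 59 genes remained (0.465%), and 11 of them were left out by name (Rnase2a, Reg1, Nefl, Nefm, Prl, Col6a1, Col6a2, Col10a1, Col18a1, Slc22a23 and Trim66), which left 48 members. Because these values chose the genes, the group levels below are a description, and no test was run on them. In the opposite direction, 777 genes (6.13%) had every responder above every non-responder, and 334 (2.64%) met the rule in mirror image.

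Transcripts of a bulk tumor come from malignant, stromal, vascular and immune cells together. CT26 is an undifferentiated carcinoma line, and genes used by neurons or by stratified epithelia can be expressed by carcinoma cells in programs of migration, adhesion and matrix remodeling. In these data fewer cells of a type and less RNA per cell cannot be told apart. Of 8 epithelial markers (Epcam, Cdh1, Krt8, Krt18, Krt19, Krt7, Cldn4 and Cldn7), Cdh1 alone reached a mean of 2 CPM, and their summed level ranged from 7.41 to 9.50 CPM in non-responders and from 4.01 to 8.44 CPM in responders. Most of these general epithelial markers were thus low in all 10 tumors, although Cdh1 averaged 4.89 CPM. Krt20, a keratin of colon epithelium outside that list, was expressed, at a mean of 38.6 CPM and between 12.7 and 75.3 CPM in single tumors. Libraries held between 23374649 and 38042544 counts, and the lowest count of any member in any tumor was 15.3.

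Among the 48 genes the ratio ran from 1.503 to 2.80 with a median of 1.72. It was at least 2 in 10 genes and under 1.7 in 23. Over all 12675 genes the median log2 ratio was 0.02, 6966 genes had the higher mean in non-responders, and 124 had a ratio of at least 1.5. Mean levels of the members spanned 2.04 to 3060 CPM with a median of 14.5 CPM. Only 3 members averaged 100 CPM or more (Spp1, Vldlr and Sema7a), and 21 averaged under 10 CPM.

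**Figure D1:**
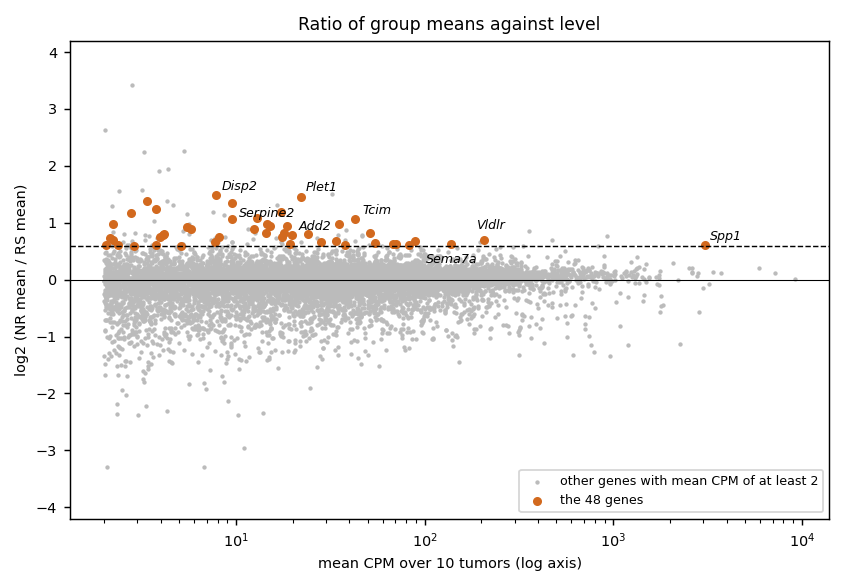
Each point is a gene with a mean of at least 2 CPM, with its mean CPM over 10 tumors on a log axis and the log2 ratio of the non-responder (NR) mean to the responder (RS) mean on the vertical axis. The 48 genes (orange) lie above the dashed line at a ratio of 1.5 and spread from 2.04 CPM to Spp1 at 3060 CPM; gray points above that line overlapped between the groups or were left out by name.

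The distance between the groups was small for many members. The lowest non-responder exceeded the highest responder by a factor of 1.16 at the median. This factor was under 1.1 in 18 members and at least 1.3 in 3, and its largest value was 1.48, in Disp2. At the border of separation, Ociad2 (1.005), Sema7a (1.009) and Vipr1 (1.014) lay just inside, and Fer1l6 (0.997), a gene without a symbol (0.990) and Mmp9 (0.986) just outside. At the border of the ratio, Rflnb (1.503), Enpp3 (1.516) and Spp1 (1.519) lay inside, and Pdgfrb (1.493), Sh3bgrl2 (1.490) and Ccdc9b (1.483) outside. At the border of level, Gm13408 (2.04 CPM), Vipr1 (2.14 CPM) and Tfpi2 (2.22 CPM) lay inside, and Cracdl (1.79 CPM), Olfr810 (1.39 CPM) and Enthd1 (1.35 CPM) outside.

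**Figure D2:**
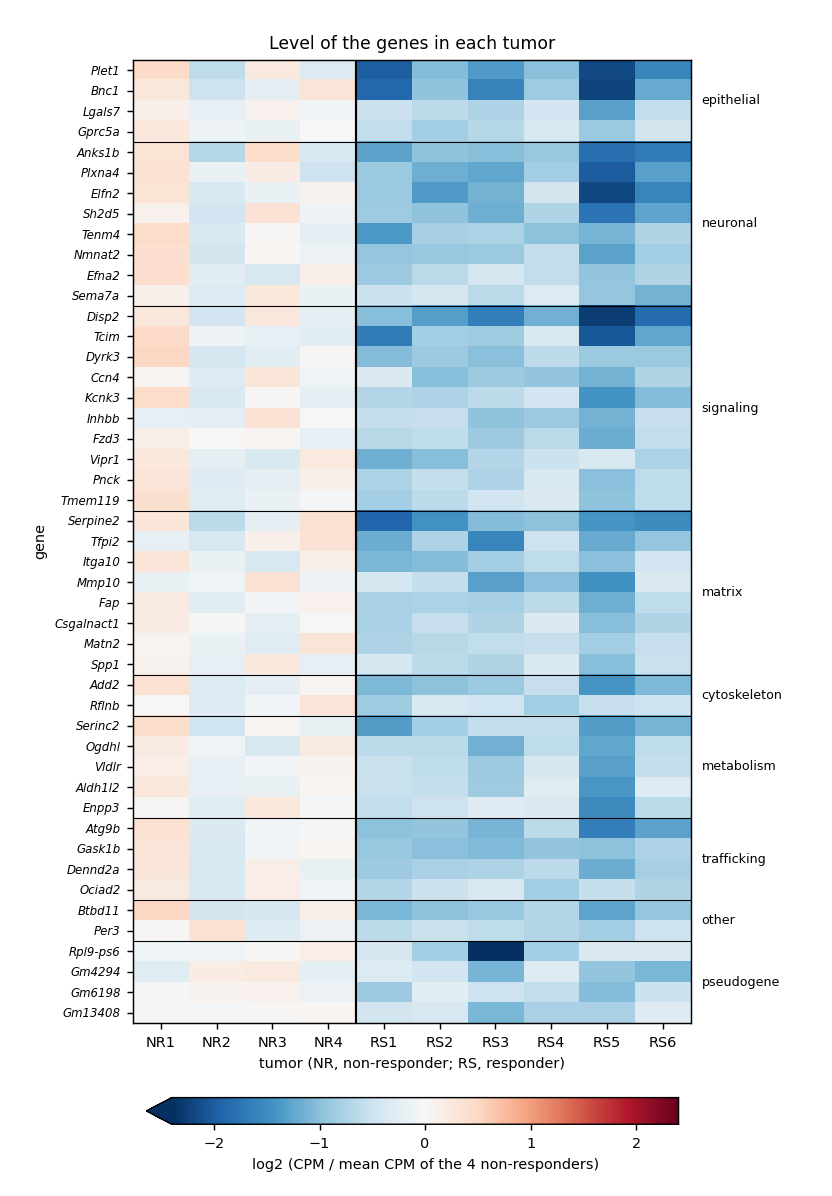
Rows are members grouped by role, columns the 4 non-responders (NR) and 6 responders (RS), and color the log2 of the CPM over the mean of the non-responders. Responder 5 is the darkest column, lowest of all 10 tumors in 35 genes; Rpl9-ps6 in responder 3 lies below the color scale.

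Epithelial surface and transcription factor genes held some of the largest ratios. Plet1 encodes a surface protein of epithelial progenitors in skin, gut and placenta and lies at chr9:50494525-50505482 (GRCm38, plus strand). It stood at 49.0, 23.3, 41.9 and 28.4 CPM in non-responders 1 to 4, and its lowest, median and highest responder were at 7.99, 12.9 and 17.7 CPM. The groups stood at 35.7 ± 11.9 (SD, n = 4) and 13.0 ± 4.11 CPM (SD, n = 6), a ratio of 2.74. Bnc1, basonuclin 1, is a zinc finger protein of the proliferating layer of stratified epithelia at chr7:81966672-81992292 (minus strand). It was scarcer, at 6.46, 3.76, 4.53 and 6.58 CPM in the non-responders and at 1.15, 2.03 and 2.95 CPM in the lowest, median and highest responder, a ratio of 2.59. Non-responder 2 was the lowest of its group and responder 5 the lowest of all in both genes. Lgals7, a galectin of stratified epithelia, was expressed at 125, 101, 125 and 111 CPM against 46.9, 75.4 and 84.0 CPM, with a ratio of 1.61. Gprc5a, an orphan receptor induced by retinoic acid, was at 88.9 ± 12.3 and 57.8 ± 8.11 CPM, with a ratio of 1.54. Of 8 skin keratinocyte markers, 1 reached 2 CPM, and their sum ranged from 2.74 to 8.83 CPM in non-responders and from 2.79 to 3.96 CPM in responders. A broader list of 25 epithelial genes had 5 above 2 CPM. Of these, 3 had the higher mean in non-responders, none was lower in every responder and 1 was higher (St14, 4.97 against 7.14 CPM). Over all genes these shares were 55%, 5.78% and 6.13%. The 3 higher in mean were Krt20 (52.9 against 29.0 CPM, ratio 1.82), Cdh1 (6.01 against 4.15 CPM) and Spint2 (17.4 against 15.9 CPM). Lgals4 averaged 5.33 and 5.44 CPM.

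**Figure D3:**
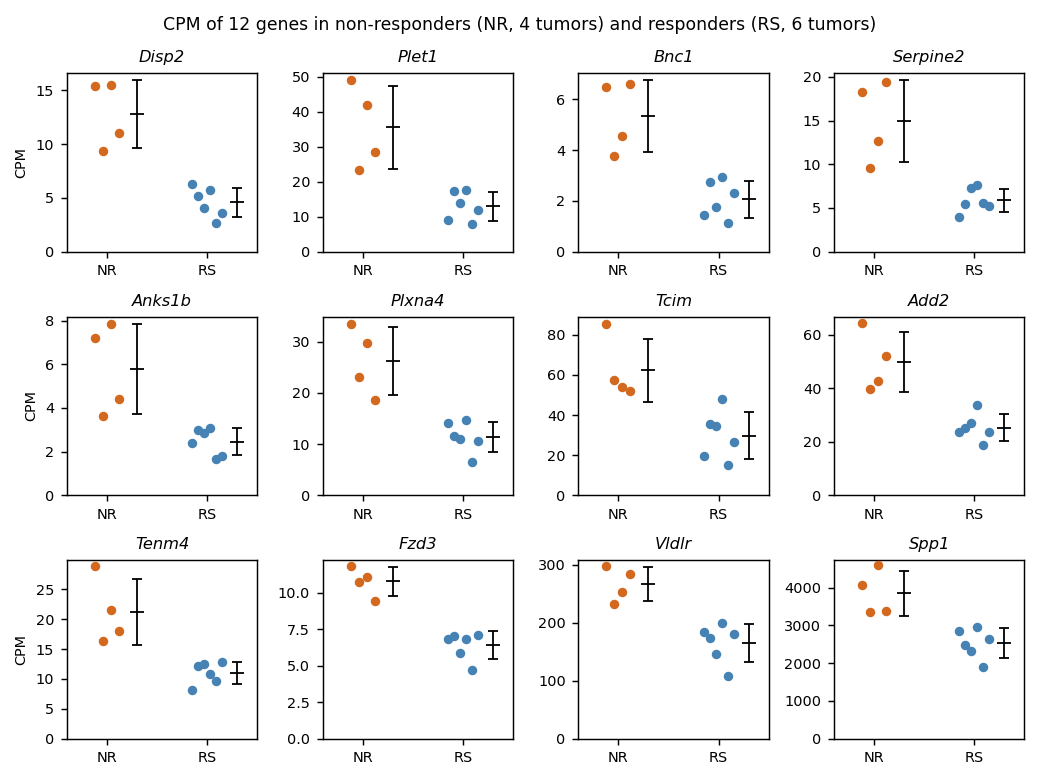
Points are the CPM of single tumors for 12 of the 48 genes, in 4 non-responders (NR) and 6 responders (RS), each panel with its own axis from 0; the horizontal mark and bar are the mean and SD. No responder reaches the lowest non-responder in any panel, since the genes were selected so, and the space between groups is widest for Disp2 (a factor of 1.48) and narrow for Tcim (1.09).

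The upstream sequences of 3 genes with high ratios, and of Spp1 as the most abundant member, show how unlike their start regions are. Each line gives the 250 bases before the start annotated by RefSeq on GRCm38.p6, 5′ to 3′ on the strand of the gene, with matches to any of 5 searched motifs in capitals. The regions are chr9:50494275-50494524 (plus strand) for Plet1, chr7:81992300-81992549 (minus strand) for Bnc1, chr15:78718772-78719021 (minus strand) for Elfn2 and chr5:104434861-104435110 (plus strand) for Spp1.
Plet1: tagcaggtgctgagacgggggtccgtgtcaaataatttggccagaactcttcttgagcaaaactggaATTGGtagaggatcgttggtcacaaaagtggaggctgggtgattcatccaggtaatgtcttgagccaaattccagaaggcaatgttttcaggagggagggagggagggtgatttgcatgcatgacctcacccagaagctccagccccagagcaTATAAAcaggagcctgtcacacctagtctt
Bnc1: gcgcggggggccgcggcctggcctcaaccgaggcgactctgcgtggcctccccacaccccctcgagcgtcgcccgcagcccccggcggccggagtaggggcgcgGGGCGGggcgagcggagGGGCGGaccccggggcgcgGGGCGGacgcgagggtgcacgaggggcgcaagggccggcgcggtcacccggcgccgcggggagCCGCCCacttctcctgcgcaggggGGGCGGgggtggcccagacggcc
Elfn2: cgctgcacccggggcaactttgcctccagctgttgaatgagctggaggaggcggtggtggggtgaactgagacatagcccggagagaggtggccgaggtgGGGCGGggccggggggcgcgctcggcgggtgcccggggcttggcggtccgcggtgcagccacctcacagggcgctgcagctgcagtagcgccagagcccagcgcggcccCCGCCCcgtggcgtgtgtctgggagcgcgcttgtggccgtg
Spp1: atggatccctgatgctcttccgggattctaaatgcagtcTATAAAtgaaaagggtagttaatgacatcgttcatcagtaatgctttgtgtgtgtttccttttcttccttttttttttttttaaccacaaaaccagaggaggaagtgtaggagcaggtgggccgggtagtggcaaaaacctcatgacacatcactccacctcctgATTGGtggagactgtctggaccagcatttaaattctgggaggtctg
Plet1 had a TATA box match at position -30 from the start, and both Plet1 and Spp1 had 3 CpG dinucleotides in the window. Bnc1, at 83.6% G and C, had 39 CpG dinucleotides and 5 GC box matches, and Elfn2 had 25 CpG dinucleotides and 2 GC box matches.

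Such a start region was given for 29 of the 48 genes. On either strand, the GC box GGGCGG was found in 14 of the 29 (48.3%, against 32.7% of all 32851 start regions in the table), the CCAAT box CCAAT in 9 (31.0% against 33.8%), and the TATA box TATAAA in 5 (17.2% against 12.4%). The AP-1 site TGACTCA was found in 1 (Mmp10; 3.45% against 4.46%) and the E-box CACGTG in 0 (against 6.02%). None of these motifs contains another. The median content of G and C was 57.6% in the 29 windows and 52.4% in all windows. These matches describe letters in a window and were not tested as binding sites.

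The neuronal group had 8 members, with ratios from 1.55 to 2.35. Plxna4, a plexin that receives semaphorin signals during axon guidance, stood at 33.5, 23.2, 29.6 and 18.6 CPM in the non-responders, and its lowest, median and highest responder were at 6.54, 11.3 and 14.6 CPM (ratio 2.29). Anks1b, a scaffold of the postsynaptic density, was at 7.23, 3.61, 7.87 and 4.43 CPM against 1.65, 2.62 and 3.08 CPM (ratio 2.35). Elfn2, a synaptic adhesion protein with leucine-rich repeats, was at 5.25, 3.24, 3.76 and 4.46 CPM against 0.922, 1.76 and 3.08 CPM (ratio 2.25). In Elfn2 the lowest non-responder and the highest responder were separated by little, while Plxna4 left a clear space. Sh2d5, an adaptor protein abundant in brain, was at 18.9 ± 4.47 CPM in non-responders and 8.94 ± 2.11 CPM in responders (ratio 2.12). Tenm4, a teneurin of neuronal wiring, had a ratio of 1.92 and its lowest non-responder at 16.4 CPM above its highest responder at 12.9 CPM. Nmnat2 makes NAD and keeps axons alive, and its ratio was 1.85. The remaining members were the ligands Efna2, an ephrin (2.91 ± 0.739 against 1.80 ± 0.240 CPM, ratio 1.61), and Sema7a, a membrane-anchored semaphorin (ratio 1.55). Sema7a was the third most abundant member, at 193, 141, 214 and 158 CPM in the non-responders and 80.9, 118 and 140 CPM in the lowest, median and highest responder, so that non-responder 2 and responder 4 were close to touching.

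The wider axon guidance family moved in both directions. The list held 53 semaphorins, plexins, neuropilins, netrins, slits, ephrins and their receptors, but not Plxna4. Of these, 36 reached 2 CPM, with a median log2 ratio of 0.12 (0.02 over all genes). Among the 36, 9 were lower in every responder and 5 were higher, where the shares over all genes were 5.78% and 6.13%. The 9 include Sema7a and Efna2, which the selection placed there. Besides Sema7a and Efna2, the lower ones on the list were Plxnb1 (20.1 against 13.5 CPM), Plxna2 (16.6 against 11.4 CPM), Ntn4 (12.9 against 8.99 CPM), Sema3a, Sema6d, Ephb3 and Plxna3, with ratios between 1.12 and 1.48. The higher ones were Sema4a (22.3 against 41.4 CPM), Sema4d (28.7 against 48.2 CPM), Efnb2, Sema3f and Ntn1. Sema4a and Sema4d are semaphorins used by immune cells. General neuronal genes were mostly low. Of 37 listed, 8 reached 2 CPM, none of them separated the groups, and 5 had the higher mean in non-responders. Gap43, a growth cone protein, averaged 3.65 and 2.26 CPM in non-responders and responders, Eno2 148 and 130 CPM, and the axonal tubulin Tubb3 33.5 and 49.7 CPM. Schwann cell and nerve markers summed to 45.6 to 59.3 CPM in non-responders and 57.7 to 70.9 CPM in responders, with 3 of 7 above 2 CPM.

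Signaling genes formed the largest group, with 10 members. Disp2, at chr2:118779719-118811293 (plus strand), is a transmembrane relative of the protein that releases lipid-bound Hedgehog ligands, and it had the highest ratio of all. It was measured at 15.4, 9.32, 15.5 and 11.0 CPM in the non-responders and at 2.65, 4.60 and 6.30 CPM in the lowest, median and highest responder. The means were 12.8 ± 3.12 and 4.58 ± 1.39 CPM, a ratio of 2.80. Disp1, the other gene of that symbol stem to reach 2 CPM, had a ratio of 1.05, and none of 14 measured Notch and Hedgehog genes separated the groups. Tcim, a small regulator tied to Wnt signaling, was at 85.5, 57.4, 54.0 and 52.2 CPM against 15.1, 30.5 and 47.8 CPM (ratio 2.09), and non-responder 1 stood well above the rest. Fzd3, a Wnt receptor, was at 11.9, 10.7, 11.1 and 9.44 CPM against 4.70, 6.84 and 7.12 CPM (ratio 1.68). Ccn4, a secreted matricellular Wnt target, had a ratio of 1.77. Of 13 measured Wnt targets and feedback genes, Apcdd1 was lower in every responder (234 against 162 CPM) and Tcf7l2 was higher (28.0 against 39.4 CPM). The shares over all genes were 5.78% lower and 6.13% higher. The other frizzled receptors included Fzd1, higher in every responder (6.85 against 11.9 CPM).

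Inhbb encodes the beta-B subunit of activins and inhibins. It was at 20.3, 20.1, 29.4 and 23.1 CPM in the non-responders and at 10.6, 14.2 and 15.8 CPM in the lowest, median and highest responder (ratio 1.69). Of 17 measured TGF-beta and BMP genes, Inhbb alone was lower in every responder, through the selection, and none was higher. Over all genes these shares were 5.78% and 6.13%. The list's median log2 ratio was -0.03, with the BMP targets Id1 (11.4 against 24.1 CPM) and Id3 (20.1 against 36.1 CPM) overlapping in the opposite direction. The other signaling members were Dyrk3, a kinase that dissolves stress granules (1.85), Kcnk3, an acid-sensitive potassium leak channel (1.75), Vipr1, a receptor for vasoactive intestinal peptide (1.67), Pnck, a calmodulin-dependent kinase (1.59), and Tmem119, a transmembrane protein of microglia and bone-forming cells (1.54). Of 23 other ion channels measured, none was lower in every responder and 5 were higher (5.78% and 6.13% over all genes).

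Matrix genes gave 8 members, among them protease inhibitors and proteases. Serpine2, at chr1:79794197-79861180 (minus strand), is an inhibitor of thrombin and urokinase. It was at 18.3, 9.52, 12.7 and 19.4 CPM in the non-responders and at 4.01, 5.53 and 7.60 CPM in the lowest, median and highest responder (ratio 2.55). Tfpi2, a Kunitz inhibitor of plasmin, was near the level limit, at 3.15 ± 0.722 and 1.60 ± 0.414 CPM (ratio 1.97). Mmp10, the stromelysin that cleaves many matrix proteins, had a ratio of 1.73, Itga10, a collagen-binding integrin chain, 1.76, Csgalnact1, an enzyme of chondroitin sulfate synthesis, 1.60, and Matn2, a matrix adaptor, 1.57. Among 10 other integrin alpha chains none was lower in every responder, while Itga4 (55.3 against 83.8 CPM) and Itga9 (66.6 against 85.4 CPM) were higher. The shares over all genes were 5.78% lower and 6.13% higher.

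Spp1, osteopontin, a secreted phosphoprotein of tumor cells and macrophages at chr5:104435118-104441050 (plus strand), was by far the most abundant member. It was at 4062, 3362, 4591 and 3379 CPM in the non-responders and at 1906, 2569 and 2969 CPM in the lowest, median and highest responder. The means were 3849 ± 593 and 2534 ± 387 CPM, a ratio of 1.52. Fap, a serine protease of activated fibroblasts, was at 30.1, 21.8, 25.1 and 28.4 CPM against 11.7, 15.5 and 17.3 CPM (ratio 1.72). Of 8 fibroblast markers, Fap, through the selection, and Pdgfrb (315 against 211 CPM) were lower in every responder. The summed level of the 8 overlapped, however, at 1442 to 1895 CPM in non-responders and 1345 to 1580 CPM in responders. Pdgfra averaged 340 and 339 CPM, and Dcn 734 and 663 CPM. Of 20 basement membrane and matrix glycoprotein genes, 1 (Lamb1, 521 against 396 CPM) was lower in every responder, none was higher, and 15 had the higher mean in non-responders. The shares over all genes were 5.78% lower in every responder, 6.13% higher and 55% with the higher mean in non-responders.

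Cytoskeletal, metabolic and vesicle genes made up most of the rest. Add2, a beta adducin that caps actin and joins it to spectrin, was at 64.4, 39.5, 42.7 and 52.1 CPM in the non-responders and at 18.6, 24.3 and 33.9 CPM in the lowest, median and highest responder (ratio 1.96). Its relative Add3 was higher in every responder (26.1 against 29.6 CPM). Rflnb, a filamin partner, closed the group at a ratio of 1.503. Atg9b, a lipid scramblase of autophagy, had a ratio of 2.10 at 13.9 ± 2.91 and 6.60 ± 1.56 CPM. Of 17 other measured Atg genes, only Atg2b (1.16) was lower and only Atg3 (0.938) higher in every responder. These counts were near the shares over all genes, 5.78% and 6.13%. Gask1b, a Golgi kinase-like protein, was at 32.7, 20.0, 25.0 and 27.3 CPM against a narrow 12.6, 13.4 and 15.8 CPM (ratio 1.91). Dennd2a, an activator of Rab9, had a ratio of 1.77 and Ociad2, a protein of endosomes and mitochondria, 1.52.

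Vldlr, the very low density lipoprotein receptor, was the second most abundant member. It was at 298, 232, 254 and 284 CPM in the non-responders and at 108, 177 and 200 CPM in the lowest, median and highest responder (ratio 1.62). Aldh1l2, a mitochondrial enzyme of folate metabolism, was at 47.7 ± 7.43 and 31.1 ± 7.86 CPM (ratio 1.53). Vldlr and Aldh1l2 belong to a list of 20 measured genes of amino acid stress under the transcription factor Atf4. They were its only genes lower in every responder, both through the selection, and none was higher (5.78% and 6.13% over all genes). Of the 20, 17 had the higher mean in non-responders (55% over all genes), at a median log2 ratio of 0.22. Asns (126 against 94.2 CPM) and Mthfd2 (116 against 87.0 CPM) were among those that overlapped, and Atf4 averaged 247 and 232 CPM. The other metabolic members were Serinc2, of the serine incorporator family (1.90), Ogdhl, a relative of a mitochondrial dehydrogenase (1.74), and Enpp3, a surface nucleotide pyrophosphatase (1.52). Btbd11 (1.96), a BTB domain protein, and Per3 (1.55), a component of the circadian clock, fell in none of these groups.

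The 4 members named as pseudogenes were Rpl9-ps6 (1.68), Gm4294 (1.59), Gm6198 (1.52) and Gm13408 (1.52). Rpl9-ps6 stood at 0.528 CPM in responder 3 and between 2.96 and 4.14 CPM in the other responders. Reads of such copies may be shared with their parent genes, so these counts are uncertain. Of 60 relatives with an Rpl symbol, 55 had the higher mean in non-responders. In every responder, 8 of the 60 were lower, none with a ratio above 1.21, and none was higher. Over all genes these shares were 55%, 5.78% and 6.13%.

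Counts may also be shared where transcripts of annotated genes overlap, and the strand setting of the counting was not given in the sources used here. Overlap was judged here by the start and end of each gene, and shared exons were not checked. Aldh1l2 overlaps D10Wsu102e, which averaged 1496 CPM on the opposite strand, and Atg9b overlaps Nos3, at 3.75 CPM on the opposite strand. Gm13408 lies within Mapkap1 (57.9 CPM) and Per3 overlaps Camta1 (10.4 CPM), both on the same strand.

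Genes that share a symbol stem with a member showed no common direction when pooled. Sharing of a symbol stem gave 363 measured relatives that were not members, for 31 of the 48 genes. The Tmem stem gave 147 of them and the Rpl stem 60, so the pooled counts rest largely on these stems. A shared stem was the only ground for calling genes relatives. Of these, 28 were lower and 25 higher in every responder, 208 had the higher mean in non-responders, and the median log2 ratio was 0.03. Over all 12675 genes the same counts were 733 (5.78%), 777 (6.13%) and 6966 (55.0%), so these shares were close to those of the background. In the plexin A family, Plxna2 and Plxna3 were also lower in every responder, and Plxna1 averaged 498 and 457 CPM and overlapped. Nmnat1 (10.8 against 9.28 CPM) was lower as well.

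**Figure D4:**
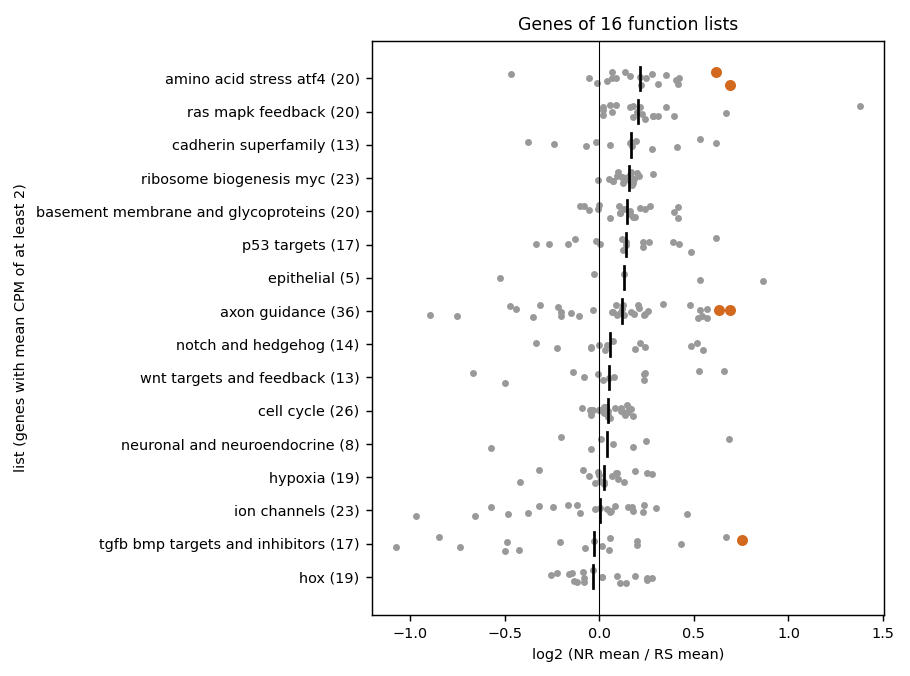
Points are genes with a mean of at least 2 CPM in 16 function lists (their number in brackets), placed by the log2 ratio of the non-responder (NR) to the responder (RS) mean, with members in orange and list medians as black bars. Medians lie between -0.03 and 0.22. Members stand toward the right of the axon guidance, amino acid stress and TGF-beta lists because the selection required a ratio of at least 1.5.

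Among the other function lists, several had the higher mean in non-responders for most genes, by small amounts. Over all genes 55.0% had it, 5.78% were lower in every responder and 6.13% were higher. All 20 RAS-MAPK feedback genes had the higher mean in non-responders, at a median log2 ratio of 0.21, but only Etv4 (122 against 92.7 CPM) was lower in every responder, and Areg, at 6.87 and 2.64 CPM, overlapped. Of 23 ribosome biogenesis and Myc genes, 22 had the higher mean in non-responders, 5 were lower in every responder (Npm1, Nop56, Pes1, Gnl3 and Utp20) and none was higher, at a median log2 ratio of 0.16. Myc itself averaged 114 CPM in both groups. Cell cycle genes had a median log2 ratio of 0.05 with 1 of 26 lower in every responder, and none of 19 hypoxia genes separated the groups. The 13 cadherins had a median log2 ratio of 0.17, with 9 higher in mean in non-responders and 1 (Cdh2) lower in every responder, and the 17 p53 targets a median of 0.14, with 12 higher in mean and 1 (Tnfrsf10b) lower. The Hox list had a median of -0.03, with 2 lower and 1 higher among 19 Hox genes.

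In many members the same tumors were the highest or the lowest of their group. Relative to the mean of the non-responders, the median member stood at 1.19, 0.818, 1.02 and 0.973 in non-responders 1 to 4 and at 0.563, 0.595, 0.550, 0.654, 0.441 and 0.606 in responders 1 to 6. Non-responder 1 was the highest of all 10 tumors in 27 members, and non-responder 2 the lowest of its group in 34. Responder 5 was the lowest of all in 35 members, and responder 4 the highest of its group in 28. Over the 6 responders, the correlation of the log2 level of a member with the median profile of the others had a median r of 0.797 and was above 0.7 for 29 members. Over all 12675 measured genes the median r with that profile was 0.044, and r was above 0.7 for 1893. The values of a tumor share a library and a total count, and this is a description. It rested on the extreme tumors, since the median r was 0.502 without responder 5 and 0.256 without responders 4 and 5. The members with r above 0.7 then numbered 12 and 6. Dennd2a (0.968), Nmnat2 (0.966), Pnck (0.958) and Fap (0.949) followed the profile most closely, and Ociad2, Vipr1, Rflnb and Rpl9-ps6 had r below 0.

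Summed markers of several other cell types ran the opposite way across the same tumors. The 9 macrophage markers summed to 2137, 2833, 2514 and 2717 CPM in non-responders 1 to 4 and to 3438, 3252, 3589, 2950, 4382 and 3463 CPM in responders 1 to 6, none of them at 0. Their lowest sum was in non-responder 1, where members were highest, their highest in responder 5, where members were lowest, and responder 4 had the lowest sum of its group. Adgre1, Cd68, C1qa, C1qb and C1qc were higher in every responder, where 6.13% of all genes were, and Csf1r, Mrc1, Cd163 and Mertk overlapped. Of these, Mrc1 (450 against 410 CPM) and Cd163 (77.3 against 62.5 CPM) had the higher mean in non-responders. The 10 cytotoxic lymphocyte and NK markers summed to between 43.9 CPM (non-responder 1) and 187 CPM in non-responders and between 195 CPM (responder 4) and 419 CPM (responder 5) in responders. Summed adipocyte markers (21.1 to 51.4 against 73.2 to 168 CPM) and skeletal muscle markers (370 to 496 against 506 to 1340 CPM) did not overlap either, whereas T cell markers did (80.2 to 146 against 128 to 273 CPM). The 8 neutrophil markers summed to 312 to 423 CPM in non-responders and 247 to 313 CPM in responders. The part of these cells in the levels of the 48 genes was not tested. The median ratio of the members was 1.64 without non-responder 1 and 1.64 without responder 5, against 1.72 with all tumors.

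**Figure D5:**
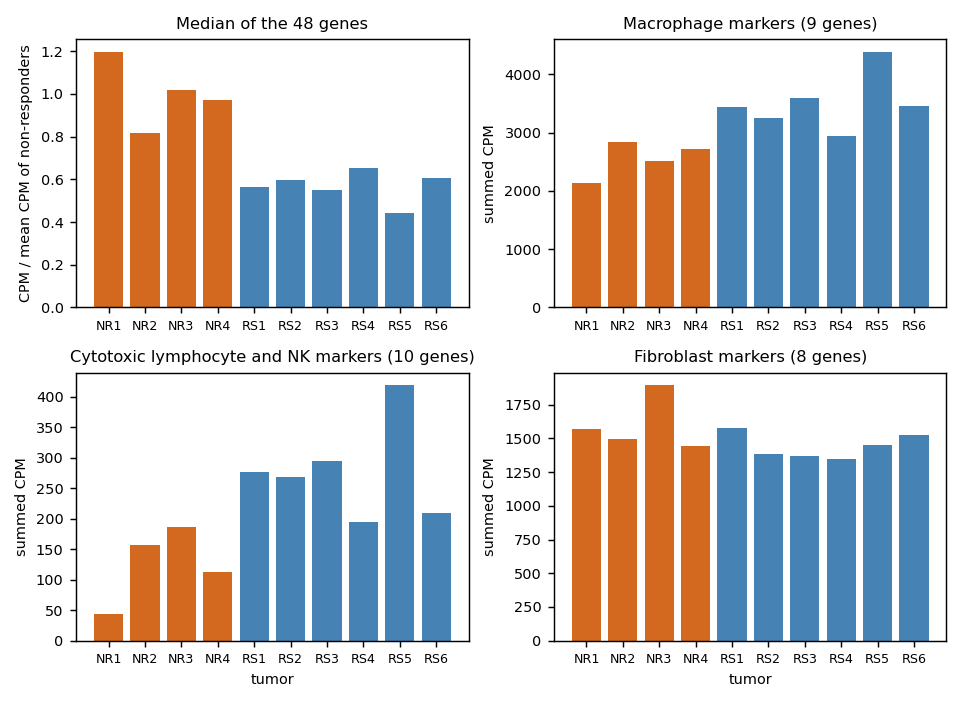
Bars are single tumors, non-responders (NR) in orange and responders (RS) in blue. The first panel gives the median over the 48 genes of the CPM relative to the non-responder mean, and the others the summed CPM of macrophage, cytotoxic lymphocyte and NK, and fibroblast markers; responder 5 has the lowest bar in the first (0.441) and the highest macrophage (4382 CPM) and cytotoxic (419 CPM) bars.

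Within a group, the members varied more than the typical gene. Their median coefficient of variation was 20.4% among non-responders and 19.4% among responders, against 8.17% and 6.99% over all 12675 genes. The comparison was not matched for level, and the members were selected on these same values. Of the 48 genes, 45 were annotated as protein coding and 3 as processed pseudogenes. They were spread over 16 chromosomes, with at most 6 on any chromosome (chromosome 1). The closest neighbors were Serpine2 and Gm6198, 1.69 Mb apart, and no other members on the same chromosome were closer.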

How the data were processed

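PolyA RNA of 10 tumors was sequenced as paired-end reads of 150 bp. After a FastQC review, the authors quantified transcripts by pseudoalignment with Kallisto and summed them per gene with tximport on mm10 (GRCm38). What they deposited are estimated counts per gene (expected counts), unscaled for depth and fractional in 45.1% of values. The annotation release and tximport scaling are not given in the sources used here. Of the gene rows, 9633 had no symbol, kept their identifier and counted toward the library totals.

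Here each count was divided by the total of its tumor and scaled to CPM. The 48 genes and all lists were chosen with earlier results of these data known, and roles were assigned after the members were seen. No group test was run. Genes were named by a fixed rule (the 12 highest ratios, the 6 highest levels, the 6 widest separations, members of a list, and 3 on each side of a threshold), with other members given by role. Among these and their relatives, 2 genes are not reported here. Gene positions came from GENCODE (GRCm38) and start regions from RefSeq. The selection was tested on simulated counts, drawn independently for each gene with a fixed spread. That checked the code, and not the behavior of the rule at the spread of these tumors. Alternatives used TMM factors (edgeR 4.0.16) and size factors (DESeq2 1.42.0) on counts rounded to whole numbers, other thresholds, and each tumor left out. Tools were Python 3.11.15, numpy 2.4.6, pandas 2.3.3 and R 4.3.3. The labels name no batch. Nothing in the labels says whether tumors shared a surgery day.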

Additional observations from a re-analysis of the deposited data

Results flagged for a closer look

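For the 21 genes with the highest ratios, levels or separations, the highest and lowest tumor of each group were compared with the nearest of the others, in 42 groups of values. In 1 of them a tumor stood apart by Dixon's criterion. Tcim was at 85.5 CPM in non-responder 1, and the nearest non-responder was at 57.4 CPM, a gap of 0.843 of the range of the group. Chance alone gives about 2.1 such cases in 42 groups.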

How the results depend on the processing

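The number of genes depended on its thresholds. It was 107 with no minimum level, 172 where the responder mean could reach 0.8 of the non-responder mean and 10 with a ratio of at least 2, against 48 as reported. A minimum mean of 1 or 5 CPM gave 55 or 35, and a ratio of medians 38. TMM or DESeq2 scaling gave 47 genes, 46 of them among the 48, and rounding counts, an alternative chosen after seeing the data, gave 48. Leaving out each tumor gave 40 to 98 genes, 39 to 47 of them among the 48, and the highest count came without non-responder 2. The mirrored count of 334 ranged from 255 to 630 without 1 tumor, with 630 without non-responder 2 and 553 without responder 4. The median ratio ranged from 1.64 to 1.77. For 21 genes (highest ratios, levels or separations) the ratio was 1.42 or more under all 252 alternative values, and each moved by less than the spread between tumors. Most of these values left out a tumor, which could not bring a ratio to 1 or below. The selection had put every non-responder above every responder in these genes. No paired analysis was possible because the tumor numbers only name tumors in accession order and no result came from a test. Members had counts from 15.3 up, and counting error at the low end was not separated from variation between tumors.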
